A study of Mus musculus with 11 samples.

Results

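The 5 uroplakin genes Upk3a, Upk1a, Upk1b, Upk2 and Upk3b and the 3 subunit genes of the epithelial sodium channel, Scnn1a, Scnn1b and Scnn1g, were read in newborn mouse liver in which Notch signalling had been switched on. These 8 genes have 10 of the 41174 distinct probes on the array, and 8 of the 10 were bright enough in at least 1 group to be tested, for 7 genes. They were chosen by name, and 3 of them, Upk3a, Scnn1g and Scnn1b, because earlier results of these data showed them in mutant but not in control livers. The other 5 are their partners in the same protein complexes. The comparison of mutants with controls is therefore a description of these genes without a test, and only the change between days, and the difference of that change between genotypes, were tested.

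Liver RNA of 11 pups of a hybrid 129 x C57BL/6 background was hybridised to Agilent whole-genome mouse arrays in 1 colour. Mutant pups (AFP-Cre/Rosa26-lsl-NICD) carried Cre recombinase under the alpha-fetoprotein promoter, which is active in fetal hepatocytes and their precursors, and a Rosa26 allele from which Cre removes a stop cassette. Recombined cells then make NICD, the active intracellular part of the Notch receptor, without any ligand. There were 3 mutants at day 2 and 3 mutants on the day of birth (day 0). Control pups (Rosa26-lsl-NICD) carried the same Rosa26 allele without Cre, with 3 pups at day 2 and 2 pups at day 0. No group carried Cre alone, so that effects of Cre and of NICD cannot be told apart. The samples are whole liver, in which a gene measured in few cells and a gene measured weakly in many cells cannot be told apart, nor can fewer cells of a type and less RNA per cell.

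Uroplakins are membrane proteins of the urothelium, the lining of the bladder and ureters, where they form the rigid plaques of the surface facing the urine. Upk1a and Upk1b belong to the tetraspanins and pair with other uroplakins: Upk1a with Upk2, and Upk1b with Upk3a or Upk3b. Upk1b and Upk3b are also known from mesothelium, the cell sheet that covers the liver and other organs. The epithelial sodium channel lets sodium enter across the apical side of tight epithelia such as the collecting duct of the kidney, the distal colon and the airways. Its alpha (Scnn1a), beta (Scnn1b) and gamma (Scnn1g) subunits assemble into 1 channel, and alpha is needed for more than a trace of current.

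Each value is the log2 signal of a spot relative to the 75th percentile of its array, so that 0 is a fairly bright spot. That percentile ran from 607.72 to 1301.55 signal units, and Feature Extraction placed 63.27% to 68.63% of the spots of an array well above background. Arrays of 1 group correlated across genes at 0.983 or more outside the day 0 mutants, whose lowest correlation was 0.954 and involved replicate 3, which stood apart. The 9 hepatocyte markers with a probe were well above background on all 11 arrays. Pup sex was assigned here from the signal of Xist, cut at the middle of its range. By this, day 0 mutants were 3 females and day 0 controls 2 males, whereas each group of day 2 held 1 male and 2 females. Every group had 1 array position on all slides, and position cannot be told apart from group. Nothing beyond the labels says that the pups were independent, and the number of arrays limits the precision of every value.

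Upk3a, the uroplakin with a long cytoplasmic tail, was bright in mutant livers and at the background of the array in controls. Its probe crosses an intron (chromosome 15, chr15:84849155-84850056 on mm8, plus strand), so that its letters lie together only in spliced RNA. The sequence of this probe, with no part marked, is shown because the widest difference among these genes rests on it.
Upk3a probe: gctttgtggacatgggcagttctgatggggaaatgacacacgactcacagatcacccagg

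Day 2 mutants read -1.05, 0.93 and -0.95 for Upk3a, against -7.86, -7.89 and -8.33 in day 2 controls. Day 0 mutants read 3.04, 3.34 and -0.03, against -7.75 and -7.78 in day 0 controls. All 6 mutant arrays were well above background and none of the 5 control arrays was, so the groups did not overlap on either day. With the controls put no lower than the dimmest well-measured signal of their own array, the mutant mean was higher by at least 50.5-fold at day 2 and by at least 322-fold at day 0. Single mutants moved these bounds: without day 2 replicate 2 the first was 32.3-fold, and the second was 211-fold without day 0 replicate 2 and 678.5-fold without replicate 3. In signal units as deposited, the mutant arrays ran from 576.3 to 2001 at day 2 and from 594.5 to 8010 at day 0, against 3.034 to 3.515 in day 2 controls and 3.438 to 4.007 in day 0 controls. The day 0 mutants themselves spread widely: replicate 3, the array that stands apart, was far below the others and within the range of day 2.

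The gamma and beta subunits of the sodium channel gave the same picture at lower signal. Scnn1g (chr7:121559068-121559127, mm8, plus strand) read -1.25, -0.91 and -1.24 in day 2 mutants, against -8.12, -6.90 and -8.29 in day 2 controls. It read -2.07, -1.55 and -0.83 in day 0 mutants, against -7.08 and -8.18 in day 0 controls. All mutants were well above background and no control was, which makes the mutants at least 29.5-fold higher on day 2 and at least 26.55-fold higher on the day of birth. On mutant day 0 replicate 3, where Upk3a was lowest of its group, Scnn1g was highest.

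Scnn1b (chr7:121709218-121709277, mm8, plus strand) read -1.59, -1.80 and -1.67 in day 2 mutants, against -7.19, -7.99 and -8.43 in day 2 controls. It read -3.30, -4.50 and -4.55 in day 0 mutants, against -7.50 and -6.85 in day 0 controls. Again every mutant and no control was well above background, and the mutants were at least 20.1-fold higher on day 2 and at least 4.28-fold higher on the day of birth. The day 2 mutants lay close together and above all day 0 mutants. Upk3a, Scnn1b and Scnn1g are therefore 3 of the 32 genes, 0.201% of the 15949 named genes tested, that were well above background on all mutant arrays and on no control array. Since they were picked for this contrast, the share is given only for scale.

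**Figure D1:**
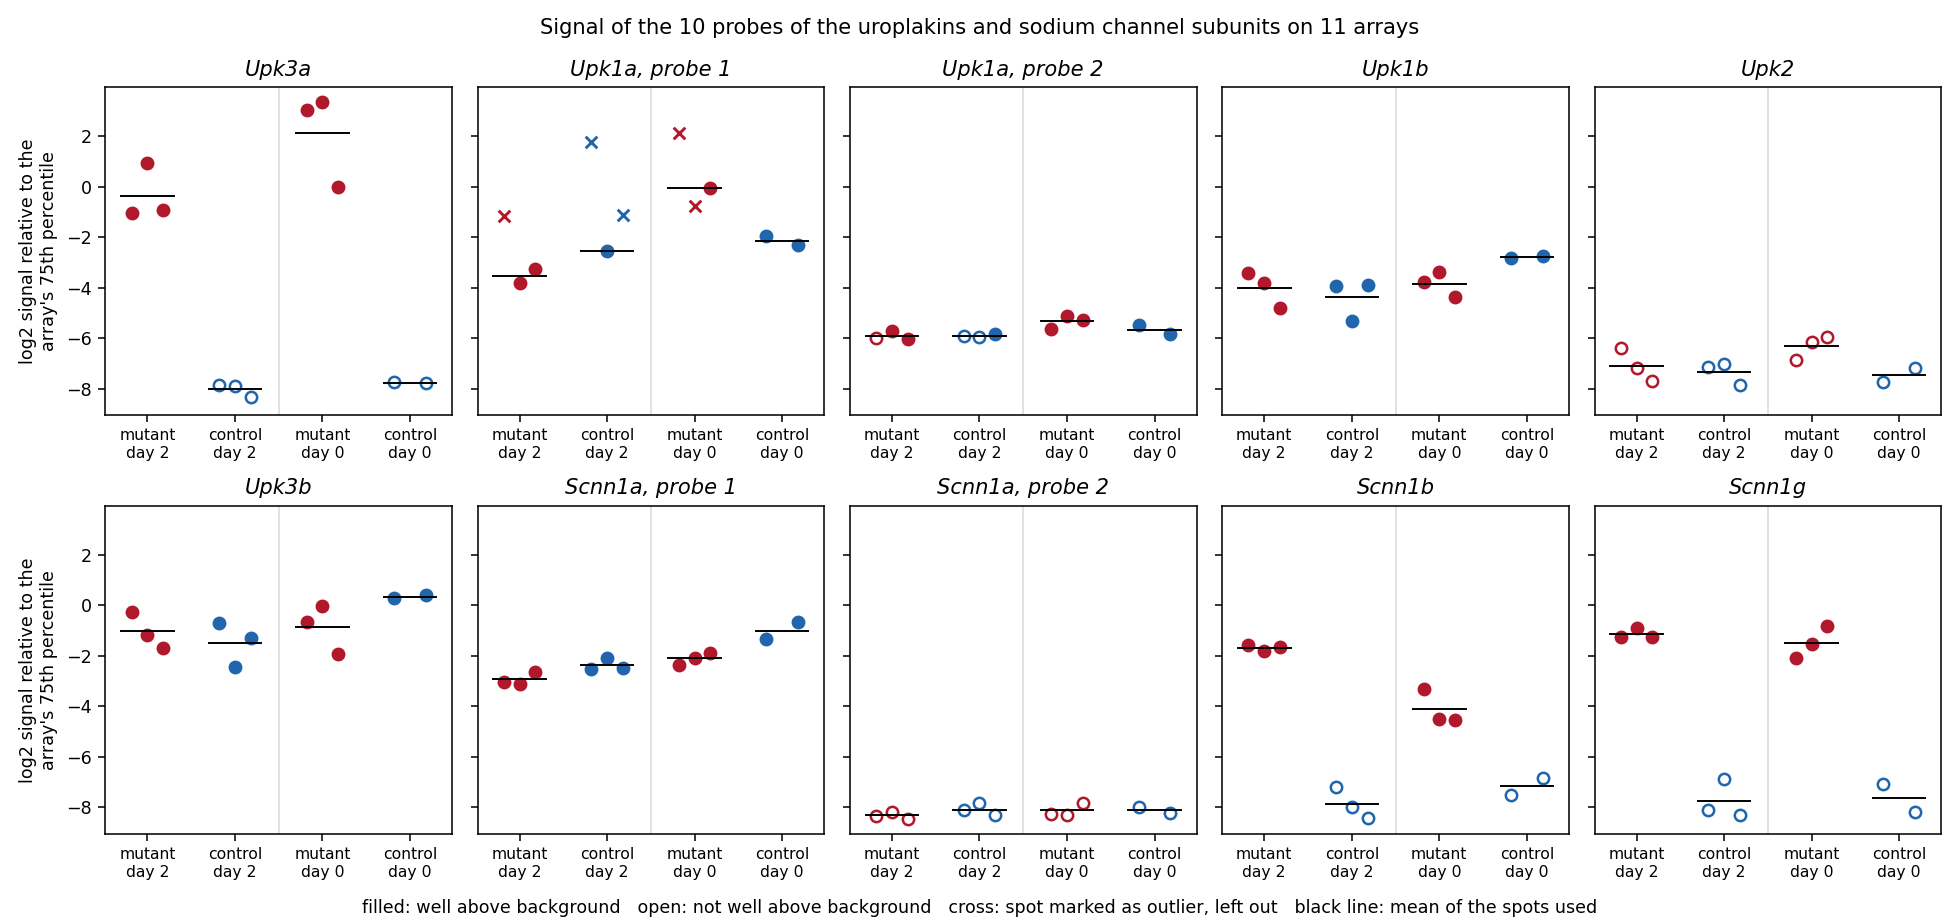
Normalised signal (log2, relative to the array's 75th percentile) of the 10 probes in the 4 groups, 1 point per array, with filled points well above background, open points not, crosses for spots marked as outliers and left out, and a black line at the mean of the spots used. Upk3a, Scnn1b and Scnn1g are filled in all 6 mutants and open in all 5 controls, whereas Upk1b, Upk3b and Scnn1a probe 1 are filled on every array.

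The alpha subunit did not share this pattern. Scnn1a has 2 probes, and they disagreed. The first (chr6:125310444-125310503, mm8, plus strand) was well above background on all 11 arrays, and the second, which crosses an intron (chr6:125308673-125308877), was above it on none. The letters of the second are shown, unmarked, because only spliced RNA holds them in 1 piece and the array gave no signal for them.
Scnn1a probe 2: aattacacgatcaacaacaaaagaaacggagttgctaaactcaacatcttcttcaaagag

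With its first probe Scnn1a read -3.04, -3.10 and -2.65 in day 2 mutants, against -2.52, -2.07 and -2.50 in day 2 controls. In day 0 mutants it read -2.35, -2.07 and -1.90, against -1.34 and -0.68 in day 0 controls. The mutants lay below the controls without overlap on both days, at 0.674 of the control level at day 2 and 0.468 at day 0. The gap at day 2 was small beside the spread: the highest mutant (-2.65) lay just below the lowest control (-2.52), and within slides the difference was -0.52, -1.03 and -0.16. The same ordering on both days was found for 6.91% of all genes tested. Whether Scnn1a was detected thus depends on which of its probes is read, and no level of the subunits relative to each other was taken, since different probes are not on a common scale.

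Upk1b and Upk3b, the tetraspanin and the partner that are known from mesothelium too, were present in all livers. Upk1b (chr16:38693078-38693137, mm8, minus strand) read -3.42, -3.81 and -4.81 in day 2 mutants, against -3.94, -5.33 and -3.91 in day 2 controls. It read -3.77, -3.37 and -4.39 in day 0 mutants, against -2.83 and -2.75 in day 0 controls. The genotypes overlapped at day 2, and at day 0 every mutant lay below both controls, at 0.481 of their mean level.

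Upk3b (chr5:136329279-136329338, mm8, plus strand) read -0.25, -1.16 and -1.70 in day 2 mutants, against -0.72, -2.46 and -1.28 in day 2 controls. It read -0.68, -0.02 and -1.94 in day 0 mutants, against 0.30 and 0.39 in day 0 controls. As for Upk1b, the groups overlapped at day 2 and did not at day 0, where the mutants averaged 0.429 of the control level. Scnn1a, Upk1b and Upk3b were thus all below controls at day 0, an ordering that 15% of all genes tested showed, on the day on which sex and genotype coincide.

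Upk2 and Upk1a, which pair with each other in the urothelium, gave little or unclear signal. Upk2 (chr9:44203734-44203793, mm8, minus strand) was not well above background on any of the 11 arrays, with values from -7.69 to -6.41 in day 2 mutants, against -7.86 to -7.01 in day 2 controls, and from -6.86 to -5.94 in day 0 mutants, against -7.73 to -7.20 in day 0 controls. It was not tested, and no fold is given.

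Upk1a has 2 probes. On the first (chr7:30312169-30312228, mm8, minus strand) Feature Extraction marked the spot as an outlier on 5 of 11 arrays, which leaves 2 day 2 mutants at -3.82 and -3.27, 1 day 2 control at -2.57, 1 day 0 mutant at -0.07 and 2 day 0 controls at -1.96 and -2.33. The marked spots read from -1.15 to 2.10, above every unmarked spot of their own group in 4 of 5 cases, and were left out. The second probe crosses an intron (chr7:30313982-30315675, mm8, minus strand) and lay near background, from -6.03 to -5.73 in day 2 mutants, against -5.97 to -5.83 in day 2 controls, and from -5.63 to -5.12 in day 0 mutants, against -5.84 and -5.50 in day 0 controls. It was well above background on 8 arrays, and the genotypes overlapped on both days. Its sequence is shown, unmarked, as the probe on which the reading of Upk1a without marked spots depends.
Upk1a probe 2: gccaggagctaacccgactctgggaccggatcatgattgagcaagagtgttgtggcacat

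Across both families, then, mutants lay above controls without overlap on both days for Upk3a, Scnn1b and Scnn1g, which 7.29% of all genes tested did. Of the uroplakin pairs, Upk3a was found in mutants together with a Upk1b that was present in both genotypes, whereas Upk2 was not detected. Of the 3 channel subunits, beta and gamma were found in mutants alone, and alpha in both genotypes by 1 of its 2 probes.

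The comparison of day 2 with day 0 asks how each gene changed over the first days of life. Of the 7 genes that could be tested, Scnn1b rose in mutants and Scnn1a fell. Upk1a passed as well, but with a single usable array at day 0, and is described apart. Over all genes 9.04% were higher and 11% lower at day 2 in mutants (limma, Benjamini-Hochberg adjusted p under 0.05). The 4 others did not pass.

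Scnn1b in mutants averaged -1.69 ± 0.11 at day 2 and -4.12 ± 0.71 at day 0 (SD, n = 3 each), a fitted log2 difference of 2.43 ± 0.39 (SE, limma adjusted p = 0.0052) or 5.38-fold. Within the 3 slides, each of which holds 1 mutant of each day, the difference was 1.71, 2.70 and 2.88. All 20 alternatives in which this gene was tested kept the call, with differences from 1.398 to 2.836. They include a fit of every probe on its own, added after seeing the data. They leave out the filter for signal on every array, which Scnn1b does not pass. In controls Scnn1b was not above background on either day. The difference between the genotypes' changes was 3.12 ± 0.59 (SE, limma adjusted p = 0.0664), which did not pass and rests on control values below background. It passed in the authors' deposited table of normalised values (2.14, adjusted p = 0.0308), with normexp background correction (1.57, adjusted p = 0.0211) and without mutant day 0 replicate 1 (3.53, adjusted p = 0.0332).

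Scnn1g, its neighbour and partner, averaged -1.13 ± 0.19 in day 2 mutants and -1.48 ± 0.62 in day 0 mutants (SD, n = 3 each). The fitted difference was 0.35 ± 0.44 (SE, limma adjusted p = 0.584), with a 95% interval from -0.65 to 1.35. This interval lies below the 1.54 to 3.31 of Scnn1b, but the difference between the genes' changes was not tested.

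Scnn1a was lower at day 2 in both genotypes by its first probe. In mutants it averaged -2.93 ± 0.24 at day 2 and -2.11 ± 0.23 at day 0 (SD, n = 3 each), a difference of -0.82 ± 0.23 (SE, limma adjusted p = 0.0347). In controls it averaged -2.36 ± 0.26 at day 2 (SD, n = 3) and -1.01 ± 0.47 at day 0 (SD, n = 2), a difference of -1.35 ± 0.25 (SE, limma adjusted p = 0.0143), where 5.44% of all genes were lower. The difference was negative on each slide, at -0.69, -1.03 and -0.75 in mutants and -1.18 and -1.39 in controls. The difference between genotypes, 0.53 ± 0.34 (SE, limma adjusted p = 0.525), did not pass.

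The calls of Scnn1a depended on single arrays. Without mutant day 0 replicate 2 the adjusted p was 0.0708, and without replicate 3 it was 0.0704. Without day 2 mutants 1, 2 and 3 in turn it was 0.0948, 0.105 and 0.0521. In controls the call was lost without day 0 replicate 2, at -1.02 and an adjusted p of 0.125. With pup sex in the model neither call of Scnn1a passed, at -0.76 (adjusted p = 0.0814) in mutants and -1.47 (adjusted p = 0.0583) in controls, differences close to those without it.

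Upk3a averaged -0.36 ± 1.11 in day 2 mutants and 2.12 ± 1.87 in day 0 mutants (SD, n = 3 each). The difference of -2.48 ± 0.83 (SE, limma adjusted p = 0.0631) did not pass, with within-slide values of -4.10, -2.42 and -0.92. The smallest comes from the slide of replicate 3, and without that day 0 mutant the difference was -3.55 with an adjusted p of 0.00453. It also passed with normexp background correction (-2.37, adjusted p = 0.0398). With replicate number as a block in the model it passed too (-2.48, limma adjusted p = 0.0369). Whether Upk3a is counted among the genes lower at day 2 thus depends on the array that stands apart, the background correction and the block.

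For Upk1a the fitted difference in mutants was -3.47 ± 0.36 (SE, limma adjusted p = 0.0088), but it sets 2 day 2 arrays against 1 day 0 array of the probe with many marked spots. The second probe, fitted on its own over all 24797 probes with a symbol as an alternative added after seeing the data, gave -0.58 ± 0.17 (SE, limma adjusted p = 0.0469), with -0.37, -0.61 and -0.76 within slides. With the mean of both probes the difference was -0.67 (adjusted p = 0.543), and in the authors' table, which has the second probe only, it was -0.06 (adjusted p = 0.777).

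Upk1b and Upk3b did not pass in mutants, with differences of -0.17 ± 0.47 and -0.16 ± 0.58 (SE, limma adjusted p = 0.815 and 0.859). In controls their differences were -1.61 ± 0.52 and -1.83 ± 0.65 (SE, limma adjusted p = 0.0784 and 0.0996), which did not pass. Without mutant day 0 replicate 3, which enters through the shared estimate of the spread, both passed, at adjusted p = 0.0496 and 0.0421. With normexp, Upk1b passed at -0.83 (adjusted p = 0.0445). The tests of the difference between genotypes passed for none of the 7 genes in limma, and over all genes 0.27% passed. At an unadjusted p under 0.05 there were 2 of 7, Upk1a, which has groups of 1 usable array, and Scnn1b, whose controls were all below background, beside 14.2% of all genes.

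**Figure D2:**
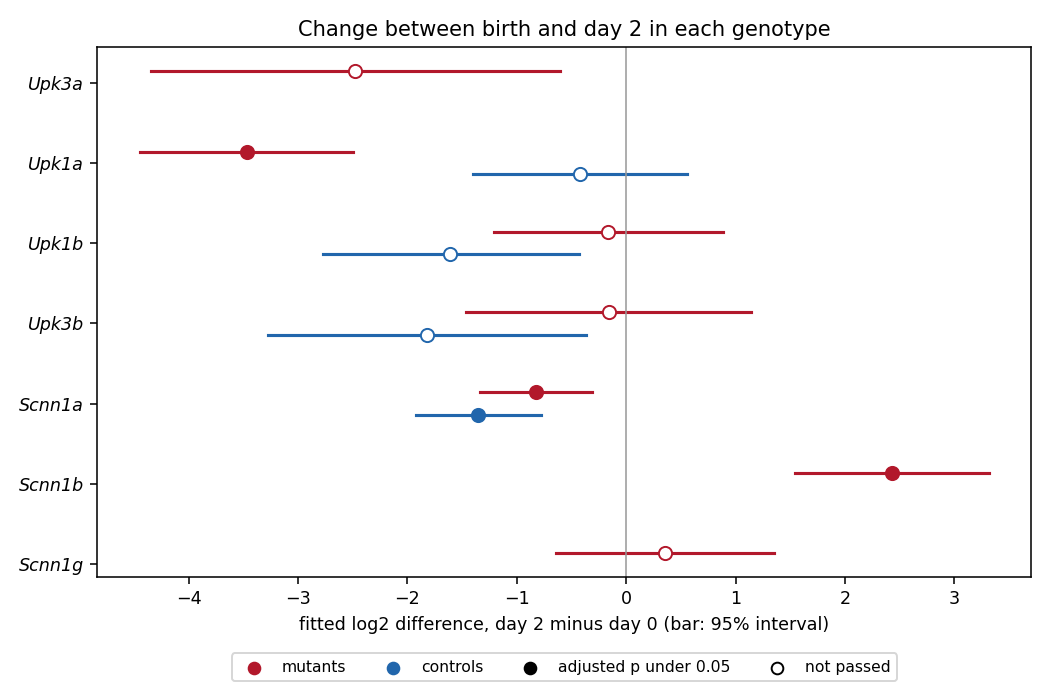
Fitted log2 difference, day 2 minus day 0, with its 95% interval in mutants and in controls, with filled points for an adjusted p under 0.05. Values of genes with no control array above background (Upk3a, Scnn1b and Scnn1g in controls) are not drawn. Scnn1b in mutants is the one filled point to the right of 0, at 2.43, and the point of Upk1a in mutants rests on 1 day 0 array.

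The 6 mutants can also be read 1 by 1. Over these 6 arrays Upk3a correlated with Scnn1g at -0.66 and with Scnn1b at -0.59, and Scnn1g with Scnn1b at 0.16 (Pearson, a description over 6 arrays of 2 ages). Over all 11 arrays the same pairs gave 0.93, 0.82 and 0.91, values that the choice of these genes by genotype fixes. Among the mutants, the arrays with the most Upk3a (day 0 replicates 1 and 2) were thus not those with the most Scnn1g (day 0 replicate 3) or Scnn1b (day 2).

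By the same measure over 11 arrays, the genes with a pattern most like that of Upk3a among 14034 were Gpx2 (Pearson r = 0.986), Ms4a4d (0.961), Mboat1 (0.960), Serpina6 (0.956) and Sdccag8 (0.956). Serpina6, which encodes the globulin that carries corticosteroids in blood, averaged 4.41 in day 2 mutants and 7.08 in day 0 mutants, against 1.69 and 2.42 in controls of the same days. Gpx2, a glutathione peroxidase of gut epithelium, averaged -0.84 in day 2 mutants and -0.22 in day 0 mutants, against -3.78 and -3.54 in controls. Unlike Upk3a, all 5 of these genes were well above background in controls.

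Among the genes most like Scnn1g were Rhov (0.987), Gapdhs (0.982), Dnm1 (0.981) and Faxc (0.981), of which Rhov, a small GTPase, and Faxc were above background on no control array. Those most like Scnn1b were S100b (0.992), Adamts16 (0.990), Has3 (0.990), Ctxn1 (0.986) and Ccdc136 (0.985). Has3, a hyaluronan synthase, was like Scnn1b above background in 6 mutants and no control, and averaged -2.81 at day 2 and -4.49 at day 0 in mutants. No gene named for 1 of the 3 was named for another. All these arrays share 1 scaling, and a difference between genotypes is enough to give a high r over them.

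Upk1b and Upk3b followed mesothelial genes instead, a reading added after their values were seen. Over 11 arrays Upk1b correlated with the 7 mesothelial markers at 0.782 to 0.964 and with their mean at 0.963, and Upk3b at 0.730 to 0.966 and with their mean at 0.948. Rspo1, a secreted activator of Wnt signalling, was among the 5 genes most like each of them over the whole array (0.964 and 0.966). It is itself 1 of the 7 markers and gives the top of both ranges. Pdpn, a surface protein of mesothelium and lymph vessels, was at 0.982 and 0.955. It was dim, above background on 4 mutant and 4 control arrays. The mean of the markers ran from -2.83 to -1.69 in day 2 mutants, against -4.00 to -2.51 in day 2 controls, and from -2.68 to -1.52 in day 0 mutants, against -1.18 and -1.15 in day 0 controls. None of the 7 markers differed between genotypes over both days in limma, nor at an unadjusted p under 0.05. The part of mesothelial tissue on each sample in the values of Upk1b and Upk3b was not tested.

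**Figure D3:**
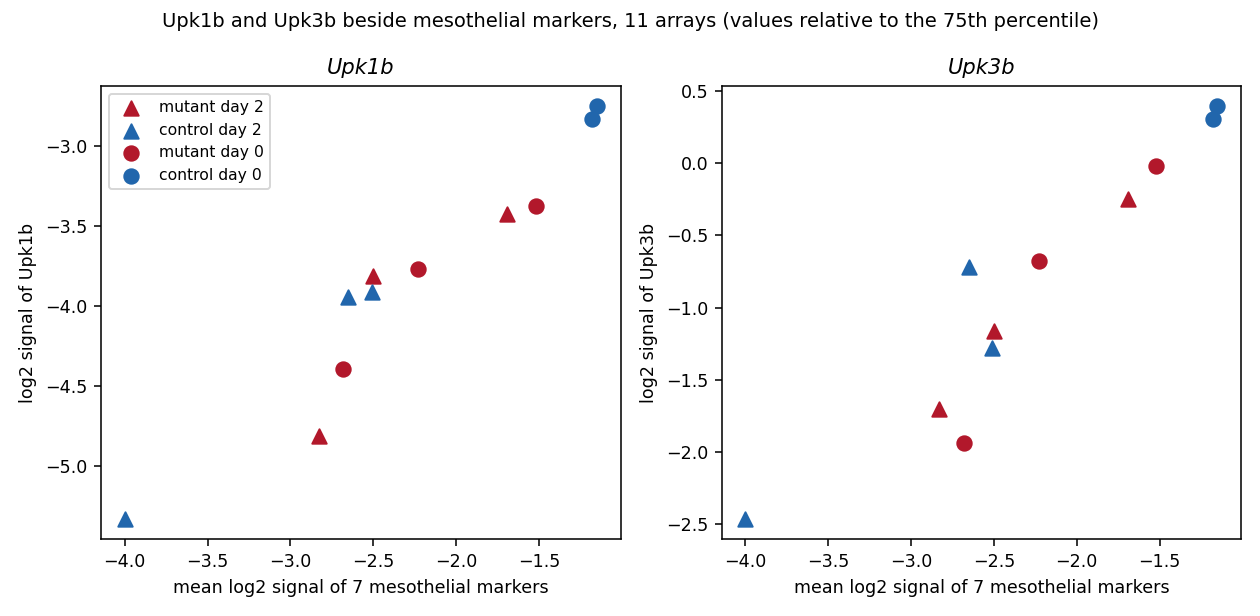
Log2 signal of Upk1b (left) and Upk3b (right) against the mean log2 signal of 7 mesothelial markers, 1 point per array, with colour for genotype and shape for day. Arrays of all 4 groups fall near 1 line, with a day 2 control lowest and the day 0 controls highest.

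Genes that go with uroplakins in urothelium were partly higher in mutants. Of 32 urothelial genes 26 could be tested over both days, of which 11 rose, 2 fell and 13 did not pass, with a median log2 difference of 0.37. Over all genes tested 8.67% rose and 6.7% fell, with a median of -0.05. The claudin of tight junctions Cldn7 (2.99 ± 0.21, SE, limma adjusted p = 3.41e-05), the simple-epithelium keratin Krt8 (1.81 ± 0.15, adjusted p = 8.34e-05), the growth factor receptor Fgfr3 (1.41 ± 0.14, adjusted p = 0.000248) and Krt13 (1.16 ± 0.16, adjusted p = 0.00171), a keratin of basal and intermediate urothelial cells, led by p. Each of these 4 was called in all 20 alternatives. Cldn7, Krt7, Krt19 and Cldn4 are bile duct markers as well. Cldn4, counted as risen in both lists, was above background on no control and on 1 day 0 mutant, and entered the test through the day 2 mutants alone. At day 2 it was at least 2.33-fold higher in mutants, and at day 0 no bound above 1 could be given.

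The claudin Cldn3 (1.42 ± 0.22), Krt18 (1.17 ± 0.17), the pairing partner of Krt8, and the epithelial transcription factors Grhl2 (2.70 ± 0.44) and Foxa1 (0.95 ± 0.22) rose as well. Other urothelial genes fell or did not pass. Trp63, the p53 relative of basal cells, fell (limma adjusted p = 0.00585). It was above background on no day 2 mutant, where it was at least 3.83-fold lower than in day 2 controls, and on 2 of 3 day 0 mutants. The T-box factor Tbx3 fell too (-1.37 ± 0.20, adjusted p = 0.0023). Krt5 of basal cells (0.16, adjusted p = 0.735), Krt20 of surface cells (-0.55, adjusted p = 0.241), Gata3 (-0.12, adjusted p = 0.876) and Pparg (-0.38, adjusted p = 0.33) did not pass. Shh, Cldn8, Mal, Snx31 and Psca were too dim to be tested in any group. Without either day 0 control in turn, 7 urothelial genes rose in place of 11, and without mutant day 0 replicate 3, 5 fell in place of 2.

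Of 25 genes that regulate or accompany the sodium channel, 22 were tested, of which 10 rose, 1 fell and 11 did not pass, with a median of 0.42. The shares over all genes tested were 8.67% risen and 6.7% fallen. Spint1, an inhibitor of membrane serine proteases, rose by 3.75 ± 0.22 (SE, limma adjusted p = 1.67e-05), and St14, matriptase, one of those proteases, by 2.16 ± 0.20 (adjusted p = 0.000145). Stk39, the kinase downstream of the WNK kinases, rose by 1.498 ± 0.15 (adjusted p = 0.000236), and Atp1b1, the beta subunit of the sodium pump, by 0.83 ± 0.12 (adjusted p = 0.00201). All 4 were called in all 20 alternatives.

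Fxyd2, the small subunit of the pump, rose as well (adjusted p = 0.00276). It was above background in 6 mutants and 1 control, and entered the test through the mutants alone. At day 0, with no control above background, it was at least 6.6-fold higher in mutants. Nedd4l, the ubiquitin ligase that removes the channel from the surface, rose by 0.50 ± 0.13 (adjusted p = 0.0284). The mineralocorticoid receptor Nr3c2 (0.02, adjusted p = 0.981), the kinase Sgk1 that it induces (0.17, adjusted p = 0.444), and the channel-activating proteases Prss8 (0.33, adjusted p = 0.371) and Furin (-0.30, adjusted p = 0.305) did not pass. Nr3c1, the glucocorticoid receptor, fell by 0.42 ± 0.10 (adjusted p = 0.0179), a call that was lost without either day 0 control. Without control day 0 replicate 2 or without mutant day 2 replicate 3, 6 of these genes rose, and 5 with pup sex in the model.

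Relatives by sequence were read in the same comparison. Of 25 tested tetraspanins, the family of Upk1a and Upk1b, 4 rose, 3 fell and 18 did not pass, with a median of -0.19. Over all genes tested 8.67% rose and 6.7% fell, so that these counts differ from the background by a few genes only. Tspan3 (1.46 ± 0.14, limma adjusted p = 0.000187), Tspan6 (0.68 ± 0.11, adjusted p = 0.00401) and Tspan17 (0.67 ± 0.12, adjusted p = 0.00487) rose, and Tspan32 fell (-0.75 ± 0.10, adjusted p = 0.00115). In place of 3, 5 fell without mutant day 0 replicate 2, and 1 fell without any 1 of the day 0 controls, control day 2 replicate 2, mutant day 0 replicate 1 and mutant day 2 replicates 2 and 3. Of the 5 acid-sensing ion channels, relatives of the sodium channel, only Asic5 was bright enough to be tested (-1.99 ± 0.51, adjusted p = 0.0286). Its call passed in 11 of 19 alternatives, and 0.0535 to 0.116 was its adjusted p without any 1 of control day 0 replicate 2, the day 2 controls and the day 2 mutants 1 and 2.

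**Figure D4:**
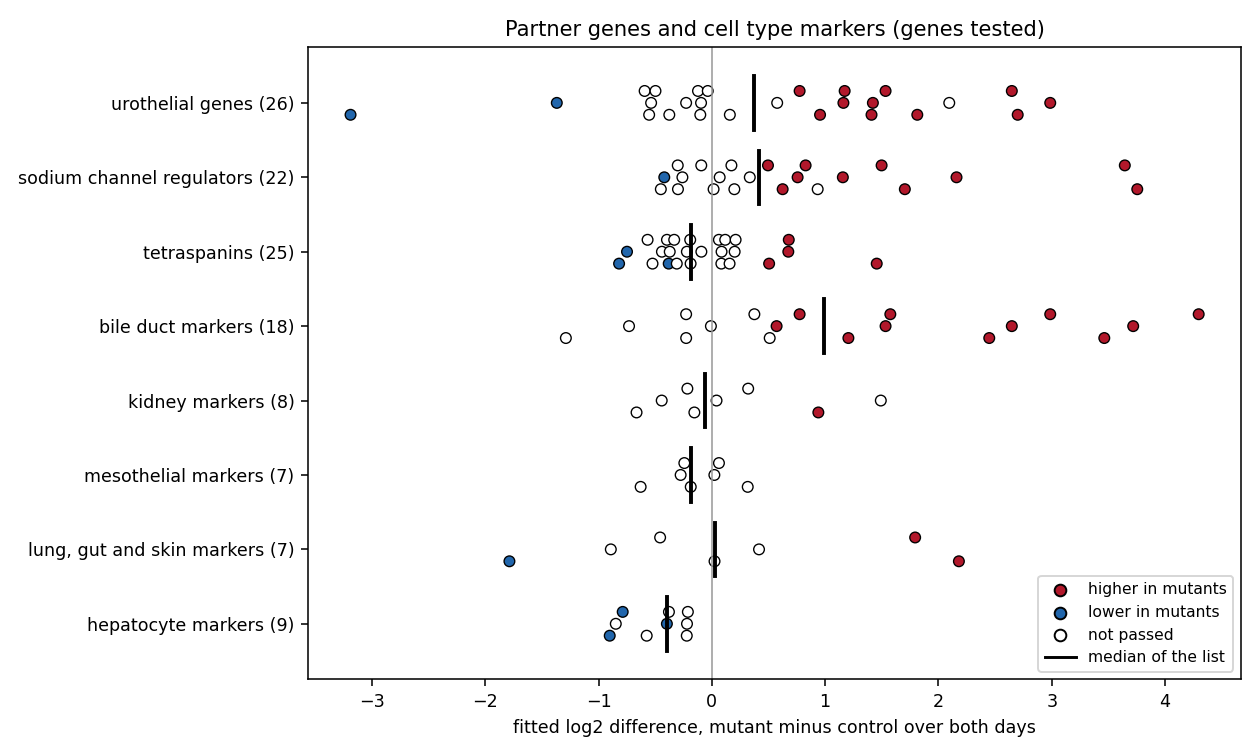
Fitted log2 difference, mutant minus control over both days, of each tested gene in 8 lists, with the number tested in brackets, a black line at the median of the list and colour for genes past the adjusted p threshold. Bile duct markers have the highest median (0.99), followed by sodium channel regulators (0.42) and urothelial genes (0.37).

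Markers of other tissues that express these genes were read beside them. Of 21 bile duct markers 18 were tested, of which 11 rose, beside 8.67% of all genes tested, with a median of 0.99. Sox9, the transcription factor of bile duct cells, rose by 4.296 ± 0.19, Cldn7 as above, and the adhesion protein Epcam by 3.46 ± 0.26 (SE, limma adjusted p = 5.48e-06, 3.41e-05 and 4.48e-05). The mean level over all 21 markers ran from 0.23 to 0.48 in day 2 mutants, against -1.54 to -1.13 in day 2 controls, and from -0.37 to -0.12 in day 0 mutants, against -1.07 to -0.87 in day 0 controls. By this mean bile duct markers were higher in mutants on both days, as Upk3a, Scnn1b and Scnn1g were, and their part in these was not tested. Between days the mean of the mutants was higher at day 2, as Scnn1b was on all 3 slides. Scnn1g differed within slides by 0.82, 0.64 and -0.41. Upk3a was lower at day 2 on all 3 slides, a difference that did not pass. Without either day 0 control in turn, 7 bile duct markers rose.

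The kidney expresses several of these genes. Of 15 kidney markers, 7 were too dim to be tested, among them Umod, Slc34a1, Nphs1 and Pax8, which mark tubule cells, podocytes or their precursors. Of the 8 tested, Cdh16 passed (0.94 ± 0.28, SE, limma adjusted p = 0.0499) and 7 did not. Among the latter, Calb1 was above background on all day 0 mutants and no day 0 control, at least 3.89-fold higher, and on no day 2 array. Avpr2 was above background on 2 day 0 mutants and no day 0 control, at least 1.675-fold higher. At day 2 its mean was lower in mutants than in controls (-5.54 against -4.72). The call of Cdh16 was lost without any single array other than control day 2 replicate 1 or mutant day 0 replicate 3, with an adjusted p from 0.0518 to 0.171. The mean over all 15 kidney markers, the dim ones included, ran from -6.86 to -6.14 in day 2 mutants, against -6.57 to -5.85 in day 2 controls, and from -5.78 to -5.34 in day 0 mutants, against -5.98 to -5.84 in day 0 controls.

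Of 12 markers of lung, gut and skin, Sftpc, Nkx2-1, Cdx2, Muc2 and Ivl were too dim to be tested. Vil1, of brush borders, rose (limma adjusted p = 0.00153). Pdx1, of pancreas and duodenum, was above background on all mutant and no control arrays and entered the test through the mutants alone. Its mutant mean exceeded controls by at least 3.095-fold on day 2 and by at least 2.37-fold on the day of birth (limma adjusted p = 0.00189 over both days), and its fitted difference was 2.18, against 0.43 with normexp. Tff3, a peptide of mucous cells, fell (adjusted p = 0.0032). The mean over all 12 markers stayed between -4.42 and -3.78 in all groups. Among hepatocyte markers Apoa1 fell (-0.79 ± 0.12, adjusted p = 0.00303), as did Apob (adjusted p = 0.0233) and Trf (adjusted p = 0.0458). The call of Apob was lost without either day 0 control, control day 2 replicate 2 or mutant day 2 replicate 2 (adjusted p from 0.0509 to 0.107), and that of Trf without any array but control day 2 replicate 3 or mutant day 0 replicate 3 (0.0755 to 0.166). Without that day 0 mutant 6 hepatocyte markers fell. The other 6 hepatocyte markers did not pass with all arrays, and 6.7% of all genes tested fell.

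The positions of the 3 genes found in mutants were compared with those of their neighbours. Scnn1g and Scnn1b are adjacent protein-coding genes on chromosome 7, and Upk3a is on chromosome 15. The 3 genes on each side of every uroplakin and channel subunit, a set added after the values were seen, were 42 distinct genes, of which 35 were tested. Among these 4 rose, 31 did not pass, and 9 of 35 had an unadjusted p under 0.05. Over all genes 8.67% rose, 6.7% fell and 29.5% had such a p. The share of neighbours that rose was thus slightly above the background. Their share with such a p was below it, and none of them fell. With 35 genes these gaps amount to a few genes. Next to the channel pair lies Cog7, a Golgi protein, at 0.86 ± 0.17 (SE, limma adjusted p = 0.0102), and on the other side Usp31 did not pass (-0.28, adjusted p = 0.241). Near Upk3a, Phf21b (3.39 ± 0.16, adjusted p = 5.52e-06) and Fam118a (1.01 ± 0.20, adjusted p = 0.0103) rose, and Nup50 between Phf21b and Upk3a did not pass (-0.13, adjusted p = 0.597). Near Upk1b, which itself overlapped between genotypes at day 2, the cell adhesion gene Igsf11 rose by 3.21 ± 0.24 (adjusted p = 4.48e-05).

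**Figure D5:**
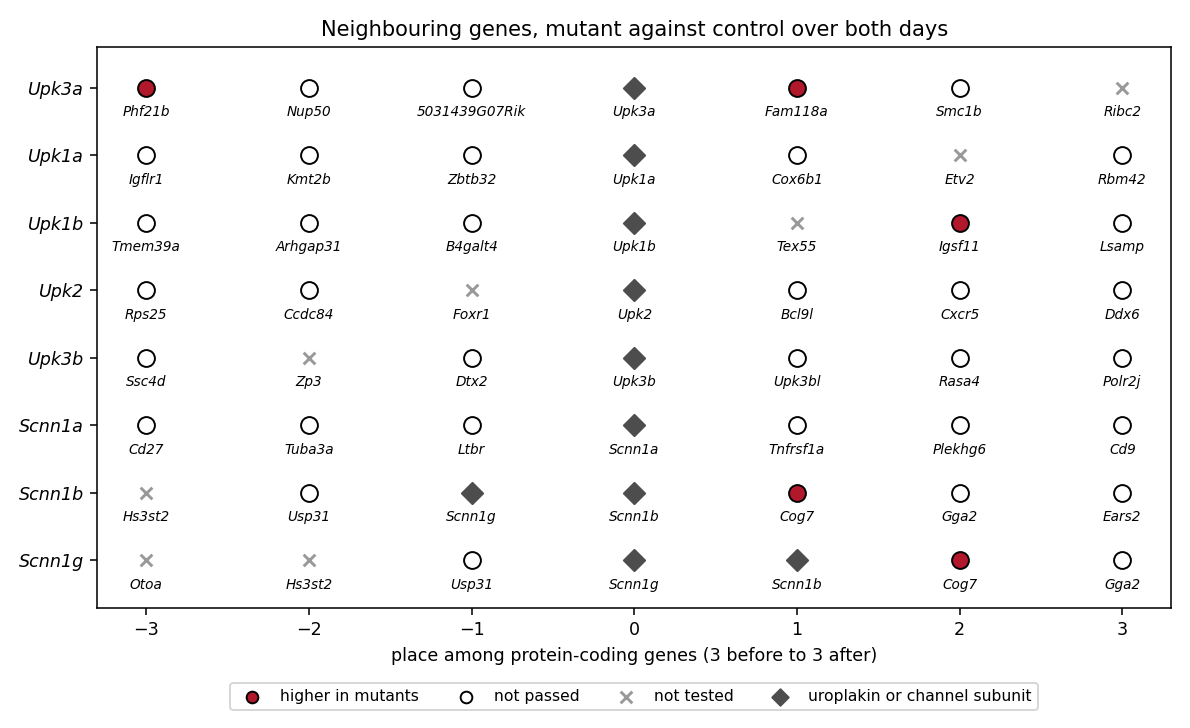
The 3 protein-coding genes before and after each uroplakin and channel subunit in the order of the RefSeq annotation, with red for genes higher in mutants over both days, white for genes that did not pass, crosses for genes not tested and diamonds for the uroplakins and subunits themselves. Red circles are Phf21b and Fam118a beside Upk3a, Igsf11 beside Upk1b, and Cog7, which is drawn in both rows of the channel pair.

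The promoters of the 3 genes found in mutants are shown because NICD acts on DNA through Rbpj, whose core letters TGGGAA were searched on both strands. RefSeq (GRCm38.p6) gave a promoter of 250 bases before and 50 after the start for 5 of the 8 genes. TGGGAA lay in none of the windows of Upk3a, Scnn1b and Scnn1g nor in that of Upk3b, and in that of Upk1a from base -215 to -210. TGGGAA was held by 25.6% of all 32851 promoters of that length. The last 150 bases before the start follow, with the GC box GGGCGG, on either strand, in capitals. This motif was added after the sequences were read, does not overlap TGGGAA, and lies in the full window of 35.7% of all promoters. The intervals are chr15:85016991-85017140 for Upk3a, chr7:121864888-121865037 for Scnn1b and chr7:121734329-121734478 for Scnn1g, all on the plus strand.
Upk3a promoter: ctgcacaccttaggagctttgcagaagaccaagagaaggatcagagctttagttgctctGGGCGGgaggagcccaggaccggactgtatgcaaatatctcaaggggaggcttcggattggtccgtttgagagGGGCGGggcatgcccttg
Scnn1b promoter: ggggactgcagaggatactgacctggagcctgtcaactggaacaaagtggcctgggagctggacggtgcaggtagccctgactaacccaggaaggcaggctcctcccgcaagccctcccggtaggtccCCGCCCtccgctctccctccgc
Scnn1g promoter: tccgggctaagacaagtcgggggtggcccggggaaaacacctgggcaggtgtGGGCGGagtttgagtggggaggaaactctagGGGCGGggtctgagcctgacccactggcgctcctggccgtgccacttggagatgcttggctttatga

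Upk3a and Scnn1g each held 2 GC boxes in this stretch and Scnn1b held 1, and Upk1a and Upk3b held none. The counts were the same over the full window of 300 bases. Since the motif was picked after these sequences were read, this split between the genes is a description only. A match is a run of letters and not a bound site, and a window without TGGGAA says nothing of sites elsewhere.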

How the data were processed

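Per the file headers, each array file holds a processed signal, an intensity after background subtraction within the array, from Agilent Feature Extraction 9.5.3.1. The authors' own log2 values for 33322 probes, also deposited, were made with RMA per the submitters' processing notes. Settings are not given in the sources used here, and the column medians run from 7.707 to 7.712.

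Here the log2 processed signal was centred on the 75th percentile of non-control spots. Control spots and spots marked as outliers were left out. Tests took the 27094 of 41174 probes that cleared background throughout 1 group or more, and a gene was read from its brightest such probe. Symbols came from RefSeq, and probe positions (mm8) from the files. Of the 10 probes, 8 passed, for 7 genes.

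Genes were fitted with limma 3.58.1 in R 4.3.3 (with data.table, version 1.17.8), with 4 group coefficients over 11 arrays and Benjamini-Hochberg adjustment over 15949 genes at 0.05. No Upk2 probe entered the fit. A fold against a group with no array above background is a lower bound only on the scale of the processed signal used here. With normexp background correction and in the authors' table the fitted differences of these genes were smaller, as given at the end. The steps were tested on simulated data first.

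All genes and lists were chosen with earlier results of these data known. The text names all 8 genes, the 4 genes of smallest p past the threshold in each list, the 5 genes most like Upk3a, Scnn1g and Scnn1b, and, chosen after their values were seen, other list members and neighbours. A few genes that this rule would name are not reported here. Replicate numbers are slides: same-numbered day 2 mutants and controls deviated together (correlations from 0.226 to 0.281). Same-numbered day 0 mutants and controls did so weakly (0.0608 and 0.0914). Same-numbered arrays of different days ran from -0.0342 to 0.128. Alternatives were other background corrections, normalizations, filters and probe rules, slide as a block, pup sex, and each array left out. Figures were drawn with matplotlib.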

Additional observations from a re-analysis of the deposited data

Results flagged for a closer look

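Krt7, a keratin of both bile duct and urothelium, differed between genotypes by more at day 2 than at day 0. It averaged 1.84 in day 2 mutants, against 0.02 in day 2 controls, and 1.08 in day 0 mutants, against 1.35 in day 0 controls. The difference at day 2 minus that at day 0 was 2.09 on the log2 scale (limma adjusted p = 0.0488 over all genes), and it was between 1.75 and 2.24 in 20 alternatives, of which 6 kept it past the threshold. The call was lost with the replicate block (2.05, adjusted p = 0.118), with pup sex as a covariate (1.75, adjusted p = 0.29) and without any single array other than mutant day 0 replicate 3 (adjusted p from 0.0608 to 0.149). No other gene of the lists passed this test.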

How the results depend on the processing

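The fitted difference of Scnn1b between days in mutants passed in all 20 alternatives in which it was tested. The calls of Scnn1a, Upk1a and Upk3a in the same comparison changed in 8, 3 and 3 alternatives, as given above where an array or a probe decides. No result changed direction while called. Of the counts over all genes, those called between genotypes over both days ran from 1315 to 3975 with 1 array left out, those between days from 1311 to 3413 in mutants and from 312 to 4171 in controls, and those for the difference of the differences from 6 to 247, against 2450, 3189, 1681 and 43 with all arrays. The highest counts of each came without mutant day 0 replicate 3. With pup sex as a covariate the same 4 counts were 1013, 1893, 284 and 5. Without a filter on dim probes 1109 genes changed between days in controls and 17 in the difference of the differences, which was 68 with values below background put at the floor. Arrays with the same replicate number deviated together most clearly at day 2. With the replicate block that last count was 12 and Upk3a passed between days in mutants (adjusted p = 0.0369), Upk1a no longer did (0.0737), nor did Krt7 (0.118) in the difference of the differences, or Asic5 (0.055), Apob (0.0553) and Trf (0.087) between genotypes. The cause of these shifts was not tested, beyond the fewer arrays of a group that leaving 1 out implies. With normexp, the authors' table or the floor, the fitted mutant minus control difference of Upk3a was 4.59, 5.89 or 6.995, against 8.77. In the same order that of Scnn1b was 1.525, 2.385 or 3.212, against 4.619. That of Scnn1g was 2.573, 3.763 or 4.807, against 6.391. The floor raises values below background, and normexp adds an offset of 50 to every spot, dim mutant spots included. Dim spots limit Scnn1b, Scnn1g and Upk3a in controls, Upk2 everywhere and the second probes of Upk1a and Scnn1a.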
